A study of Mus musculus with 15 samples.

Results

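This account covers the Src family kinase inhibitor PP2 against vehicle in mammospheres (tumour cells grown as floating spheres), taken across all genes measured. The samples were chosen by their titles: 3 arrays of PP2-treated mammospheres and 3 arrays of vehicle-treated control mammospheres, 6 of the 15 arrays of the series. Of the 18193 genes with a probe set naming only them, 11412 were bright enough to be tested. All cultures came from primary mammary tumour cells of FVB/N mice of the MMTV-PyMT genotype, in which the polyoma middle T oncogene is driven in mammary epithelium by the mouse mammary tumour virus promoter. They grew for 10 days unattached and without serum, in the presence of EGF, FGF and B27, and then received PP2 or vehicle for 2 days, 12 days in all. The vehicle samples carry the name DMSO in their descriptions. The PP2 dose is not given in the sources used here. Both groups carry the oncogene, the growth factors and the sphere culture, so the comparison shows what PP2 added to that state. The series also holds 3 arrays each of DAPT (a Notch pathway inhibitor), U0126 (MEK1) and TAE226 (FAK).

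Src family kinases are membrane-bound tyrosine kinases that relay signals from growth factor receptors and integrins. Polyoma middle T has no enzyme activity of its own and acts by binding and activating Src family members, which then phosphorylate it and recruit the adaptor SHC and phosphatidylinositol 3-kinase. PP2 blocks the ATP site of these kinases, and it is known to inhibit some other kinases too. In the mammary gland, Src signalling is tied to ductal growth, to adhesion and to the balance between proliferation and milk production.

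Levels are log2 of the deposited signal, and each difference is PP2 minus vehicle on that scale, so 1 unit is a 2-fold change. A gene was called when its adjusted p from limma over all genes tested fell below 0.05. Of the 11412 genes, 6030 were called, which is 52.8%. PP2 was higher for 2978 (26.1%) and lower for 3052 (26.7%). The PP2 and vehicle arrays did not overlap for 6733 genes (59.0%), and 1040 of the called genes differed at least 2-fold, 438 higher and 602 lower. With so many genes called, a gene list was read against these shares and against the median of all genes, 0.02. The balance of calls rested on the scaling. Centring each array on its own median moved all differences by -0.22, and the split then became 1210 higher and 4331 lower.

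The replicates were close. Arrays of the same group typically differed by 0.0956 to 0.149 on the log2 scale (median over probe sets, sign left out), against 0.296 to 0.351 between a PP2 and a vehicle array. On the first principal component of all 15 arrays, which held 36.4% of the variance, the PP2 arrays lay between -48.4 and -45.8 and the vehicle arrays between 12.0 and 16.4. The actin 3′ to 5′ signal ratio, which rises as RNA gets shorter, was 1.57 ± 0.04 under PP2 and 1.42 ± 0.06 under vehicle (SD, n = 3 each). Its part in the results was not tested. Array numbers in the labels ran group by group, so array order and treatment cannot be told apart. Replicates are labelled biological, but the labels do not state if each came from its own mouse or culture, so a p-value reflects only how much these samples vary.

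Markers were mostly those of mammary epithelium. Of 15 measured luminal markers, 12 exceeded the median of every array in both groups. The luminal keratins Krt8 and Krt18 differed by 0.15 and -0.03 and E-cadherin (Cdh1) by 0.17, none of them called. The hormone-receptor genes Esr1 and Pgr and the pioneer factor Foxa1 were below the array median on all 6 arrays. Of 8 fibroblast, 6 endothelial and 4 measured adipocyte markers, none lay above the median on all arrays of either group. Of 9 measured leukocyte markers, 2 did so on all PP2 arrays (Cd14 and Adgre1) and 2 on all vehicle arrays (Cd14 and Cd68), and Ptprc, Itgam and Lyz2 lay below the median on all 6 arrays. The macrophage marker Adgre1 had 6.94, 6.95 and 6.43 in PP2 spheres, against 5.97, 5.84 and 5.68 in vehicle spheres, where it was dim, so it was at least 1.50-fold higher (limma adjusted p = 0.00674). Cd68 went the other way, with 6.03, 5.24 and 5.84 in PP2 spheres, all dim, against 6.305, 6.17 and 6.65 in vehicle spheres, and was not called. Csf1r overlapped, with 6.53, 6.11 and 6.25 in PP2 spheres, against 6.38, 6.17 and 6.24 in vehicle spheres. The summed signal of 15 luminal markers was 109839 to 114844 in PP2 spheres and 93409 to 97077 in vehicle spheres. That of 15 basal and myoepithelial markers was 17531 to 18162 in PP2 spheres and 19983 to 21802 in vehicle spheres. Such sums rest mostly on the brightest genes. By gene, 4 of 13 luminal markers tested rose and 3 fell, with a median of 0.15. Under median centring 2 rose and 4 fell, with a median of -0.07. In RNA from whole spheres, fewer cells of a type and less RNA per cell cannot be told apart.

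The gene lists below moved by very different amounts, as the plot of single genes by list shows. Interferon-stimulated, mitotic and ERK-responsive genes lay mostly below vehicle, milk genes lay above it, and genes of the proteasome and of oxidative phosphorylation stayed near the median of all genes. Of 32 oxidative phosphorylation genes tested, 6 rose and 2 fell, with a median of 0.03. Of 31 proteasome genes none rose and 8 fell, with a median of -0.04. Under median centring, which moves all genes down, none rose in either list and 9 and 15 fell, with medians of -0.19 and -0.26 beside -0.20 for all genes.

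**Figure D1:**
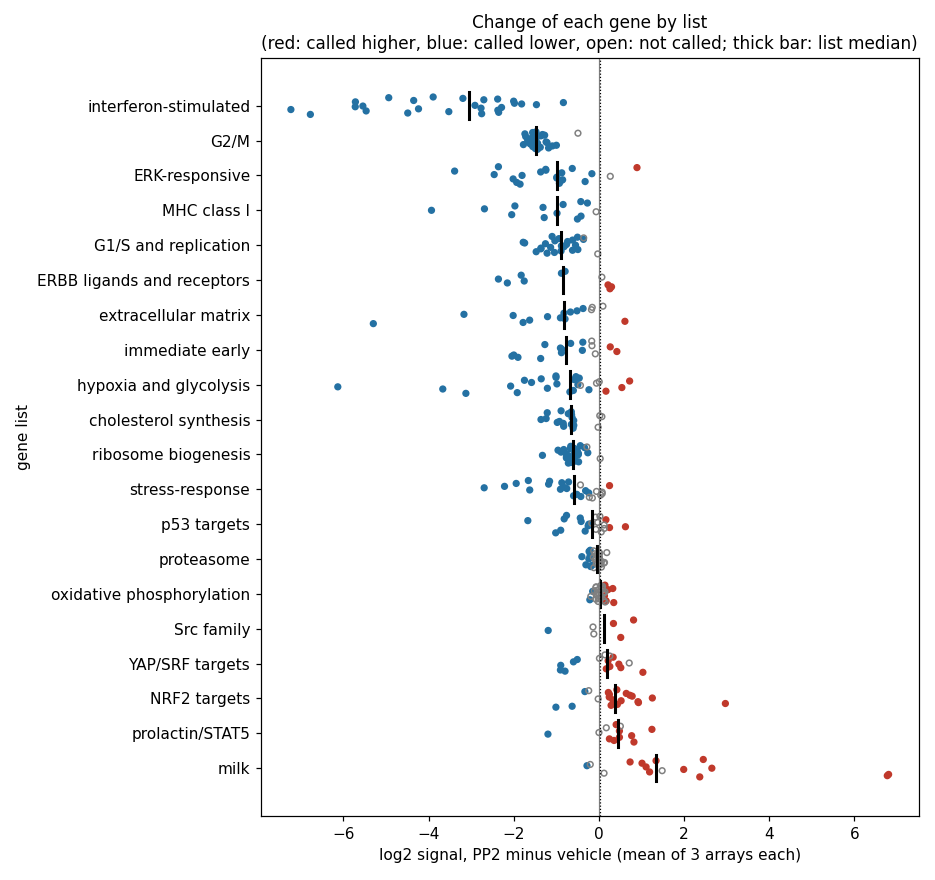
Each point is 1 gene tested, placed on the horizontal axis by its log2 signal under PP2 minus vehicle (means of 3 arrays each), with 20 gene lists down the page. Red points were called higher, blue points called lower and open points not called by limma, thick bars are list medians (interferon-stimulated -3.05, G2/M -1.48, milk 1.34) and the dotted line is the median of all genes, 0.02.

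Genes of the Src family, the kinases that PP2 targets, changed in both directions. Of the 11 Src family genes listed, 6 were tested: 3 rose, 1 fell and 2 were not called. Fyn, a broadly expressed member, had log2 signals of 7.40, 7.28 and 7.23 in PP2 spheres, against 8.53, 8.72 and 8.23 in vehicle spheres. Every PP2 array was below every vehicle array, and Fyn fell by 1.19 ± 0.12 (SE, adjusted p = 1.9e-07). Src itself had 9.53, 9.50 and 8.95 in PP2 spheres, against 8.75, 8.84 and 8.85 in vehicle spheres. The groups stood apart, with 1 PP2 array only just above vehicle, and Src rose by 0.51 ± 0.15 (adjusted p = 0.00696). Srms rose by 0.81 (adjusted p = 0.0116) and Frk, a member found in epithelia, by 0.34 (adjusted p = 0.000255). Srms was not called without PP2 replicate 1 (0.65) or without vehicle replicate 2 (0.69). Yes1 differed by -0.12 and Fgr by -0.14, with overlapping groups (adjusted p = 0.514 for Yes1 and 0.771 for Fgr). The other 3 bright Yes1 probe sets had the opposite sign, and with the mean over its probe sets Yes1 was called higher, by 0.47. Under median centring Src and Frk were no longer called, and the median of the family was -0.11 in place of 0.11.

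Genes that regulate Src family kinases also split: 4 of 8 tested rose and 2 fell, and under median centring 1 rose and 2 fell. Pag1, the membrane adaptor that brings the inhibitory kinase Csk to Src, had 9.07, 9.25 and 9.16 in PP2 spheres, against 8.03, 7.88 and 7.80 in vehicle spheres. The arrays did not overlap, and the rise was 1.25 ± 0.10 (adjusted p = 1.2e-08). Csk rose by 0.30 (adjusted p = 0.0307), the phosphatase Ptpn1 by 0.32 (adjusted p = 0.000343) and the ubiquitin ligase Cbl by 0.32 (adjusted p = 0.00282). These 3 rises were not called under median centring, and the one of Csk was also lost without PP2 replicate 2 (0.25), vehicle replicate 1 (0.23) or vehicle replicate 2 (0.28). The ligase Cblb fell by 0.42 (adjusted p = 0.000113) and the phosphatase Ptpra by 0.24 (adjusted p = 0.00292). The phosphatase Ptpn11 differed by 0.03 and Cblc by 0.01, neither called. With the mean over all probe sets of a gene, Pag1 differed by 0.11 and Cbl by -0.48, both not called, and Ptpra was higher by 0.36 (adjusted p = 0.038), so the directions of Cbl and Ptpra turned with the probe sets used.

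Among 16 Src substrates and adhesion proteins tested, 7 rose and 4 fell, with a median of 0.13, and 2 of the falls were large. Under median centring 2 rose and 6 fell, with a median of -0.09. Caveolin-1 (Cav1), a membrane scaffold first known as a Src substrate, had 9.72, 9.78 and 9.65 in PP2 spheres, against 12.16, 12.07 and 12.09 in vehicle spheres. It fell by 2.39 ± 0.08 (adjusted p = 1.99e-13), with the groups far apart. The docking protein Dok1 had 8.95, 9.05 and 8.77 in PP2 spheres, against 10.62, 10.55 and 10.69 in vehicle spheres, and fell by 1.69 ± 0.07 (adjusted p = 6.69e-12). The adhesion adaptor Bcar1 (p130Cas) rose by 0.81 (adjusted p = 5.58e-07) and vinculin (Vcl) fell by 0.51 (adjusted p = 2.38e-08). Paxillin (Pxn) differed by -0.07 and was not called.

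Most ligands of the EGF receptor fell under PP2, while the receptors did not. Of 10 genes of the ERBB system tested, 6 fell and 3 rose. Heparin-binding EGF (Hbegf) had 7.28, 7.30 and 6.73 in PP2 spheres, against 9.46, 9.41 and 9.52 in vehicle spheres. All PP2 arrays were below all vehicle arrays, and the fall was 2.36 ± 0.12 (adjusted p = 4.69e-11). Epiregulin (Ereg) had 6.56, 6.07 and 6.56 in PP2 spheres, against 8.55, 8.71 and 8.37 in vehicle spheres, and fell by 2.15 ± 0.14 (adjusted p = 1.79e-09). Epigen (Epgn) fell by 1.75 (adjusted p = 2.45e-10). TGF-alpha (Tgfa) fell by 1.83 (adjusted p = 5.48e-10), and 1 of its other 2 bright probe sets had the opposite sign. The neuregulin gene Nrg1 fell by 0.88 (adjusted p = 0.00957), which was not called without PP2 replicate 3 (-0.66). Betacellulin (Btc) differed by 0.07 and was not called, and Errfi1, a feedback inhibitor of the receptors, fell by 0.79 (adjusted p = 3.1e-08). The receptor genes Egfr, Erbb2 and Erbb3 rose by 0.26, 0.30 and 0.21. None of these 3 rises was called under median centring, where Erbb3 differed by -0.0059, and those of Egfr and Erbb2 were also lost when single arrays were left out, at 0.21 or more for Egfr and for Erbb2.

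Genes that respond to the ERK kinase cascade fell as a group: 19 of 21 tested were lower and 1, Epha4, was higher, with a median of -0.99. The phosphatase gene Dusp6, which feeds back on ERK, had 11.11, 11.17 and 11.14 in PP2 spheres, against 13.06, 13.02 and 13.13 in vehicle spheres. The arrays of each group lay close together, with a wide gap between groups, and Dusp6 fell by 1.93 ± 0.06 (adjusted p = 1.36e-13). The ETS factor Etv5 had 9.37, 9.28 and 9.49 in PP2 spheres, against 11.92, 12.06 and 11.54 in vehicle spheres, and fell by 2.46 ± 0.16 (adjusted p = 1.56e-09). Dusp4 fell by 1.85 (adjusted p = 1.44e-10). Fosl1 and the feedback genes Spry4 and Etv4 were dim on all PP2 arrays, that is below the array median, so their folds are bounds: at least 1.86-fold, 1.90-fold and 1.52-fold lower (adjusted p = 0.000291, 4.86e-06 and 6.71e-06). Over all of its probe sets Spry4 differed by -0.44 and was not called. Myc fell by 1.25 ± 0.06 (adjusted p = 3.3e-11) and cyclin D1 (Ccnd1) by 1.25 ± 0.06 (adjusted p = 1.96e-11), and neither overlapped vehicle. Relative to the same vehicle arrays, the list median was -0.18 under DAPT, -0.20 under the MEK1 inhibitor U0126 and -0.26 under TAE226. Among the genes plotted, Dusp6, Etv5 and Fos lay below vehicle on all U0126 arrays. Hbegf, Ereg, Tgfa, Myc and Ccnd1 lay above vehicle on all of them, and Epgn overlapped. The part of ERK signalling in the falls under PP2 was not tested.

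Immediate early genes, the first to be transcribed after growth factor signals, showed 11 falls and 2 rises among 16 tested, with a median of -0.77. Fos had 9.54, 9.70 and 9.48 in PP2 spheres, against 11.66, 11.58 and 11.47 in vehicle spheres. It fell by 2.00 ± 0.08 (adjusted p = 1.81e-12), with no overlap. Egr3 fell by 2.04 (adjusted p = 1.19e-09) and Egr1 by 1.37 (adjusted p = 1.49e-09). Jund, a partner of Fos, rose by 0.42 (adjusted p = 7.9e-06), and Nr4a1 by 0.27 (adjusted p = 0.0229), and neither was called under median centring. Nr4a1 was not called either without PP2 replicate 1 or 2 or vehicle replicate 1 or 2, where it differed by 0.21 to 0.25.

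**Figure D2:**
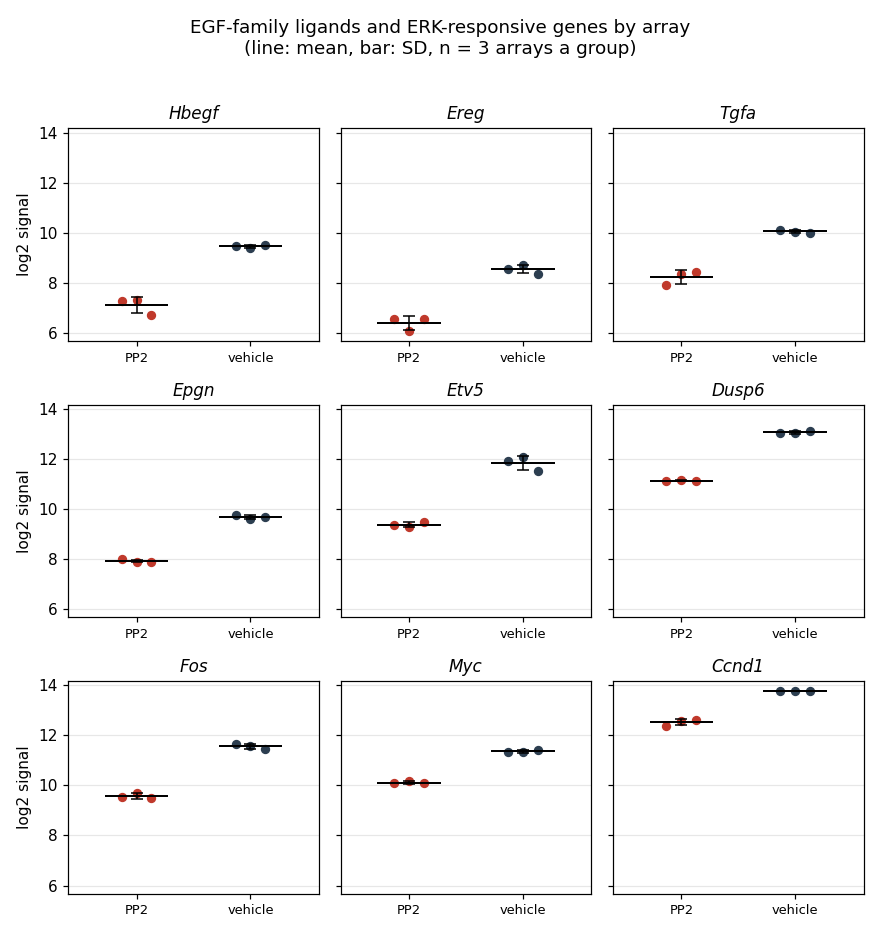
Log2 signal (vertical axis) of 9 genes on each PP2 array (left) and each vehicle array (right), with group mean and SD, n = 3 arrays each. In all 9 panels the PP2 points lie below the vehicle points, by 2.36 for Hbegf, 2.46 for Etv5 and 1.25 for Myc and Ccnd1.

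Proliferation genes fell almost without exception. Of 27 genes of the G2/M phase tested, 26 fell and none rose, with a median of -1.48, and 25 of them fell at least 2-fold. The spindle checkpoint kinase Bub1 had 7.16, 7.67 and 7.84 in PP2 spheres, against 9.34, 9.33 and 9.31 in vehicle spheres. The PP2 arrays spread more than the vehicle arrays and stayed below them, and Bub1 fell by 1.77 ± 0.15 (adjusted p = 2.47e-08). The spindle protein Nusap1 fell by 1.72 (adjusted p = 8.86e-12), the kinase Nek2 by 1.74 (adjusted p = 2.85e-06) and the kinetochore proteins Cenpe and Cenpf by 1.67 each (adjusted p = 1.15e-09 for Cenpe and 8.76e-11 for Cenpf). Foxm1, a factor that drives mitotic genes, differed by -0.49 with overlapping groups and was not called. Of 25 G1/S and replication genes, 23 fell and none rose, with a median of -0.89. Uhrf1, which helps to copy DNA methylation, fell by 1.78 (adjusted p = 1.98e-08), thymidine kinase (Tk1) by 1.74 (adjusted p = 9.44e-11) and the helicase subunit Mcm5 by 1.47 (adjusted p = 1.7e-08).

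Genes that hold the cell cycle back went both ways. The retinoblastoma gene Rb1 had 12.23, 12.23 and 12.33 in PP2 spheres, against 11.20, 11.22 and 11.08 in vehicle spheres, and rose by 1.09 ± 0.06 (adjusted p = 2.45e-10). Its relative Rbl1 fell by 1.13 (adjusted p = 2.52e-09), but differed by 0.08 over all of its probe sets, and the CDK inhibitor Cdkn1a, a p53 target, fell by 1.01 (adjusted p = 6.41e-10). Of 21 p53 targets tested, 3 rose and 10 fell, with a median of -0.17. Genes of ribosome biogenesis fell as proliferation genes did: 26 of 28 were lower and none higher, with a median of -0.61. Gnl3, a nucleolar GTPase of dividing cells, fell by 0.83 (adjusted p = 6.8e-09).

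Genes of the extracellular matrix were among the deepest falls. Of 16 matrix genes tested, 12 fell and 1 rose, with a median of -0.81. Periostin (Postn), a secreted protein that binds integrins and collagen, had 8.26, 8.77 and 8.52 in PP2 spheres, against 13.86, 13.80 and 13.77 in vehicle spheres. Every PP2 array was far below every vehicle array, and it fell by 5.30 ± 0.09 (adjusted p = 1.18e-16), about 39.3-fold. Adam12, a membrane-bound protease, had 6.13, 6.04 and 6.39 in PP2 spheres, against 9.42, 9.23 and 9.42 in vehicle spheres, and fell by 3.17 ± 0.10 (adjusted p = 1.36e-13). The collagen cross-linking enzyme Loxl3 had 6.91, 6.96 and 7.05 in PP2 spheres, against 10.01, 9.93 and 10.41 in vehicle spheres, and fell by 3.15 ± 0.10 (adjusted p = 1.99e-13). Its relative Lox was dim on all PP2 arrays and at least 2.04-fold lower (adjusted p = 7.41e-08). Tenascin C (Tnc) fell by 1.78 (adjusted p = 2.65e-09), Sparc by 1.63 (adjusted p = 3.45e-11) and fibronectin (Fn1) by 1.21 (adjusted p = 1.33e-06). Thrombospondin 1 (Thbs1) was the exception, with a rise of 0.61 (adjusted p = 1.1e-06).

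These matrix genes also set PP2 apart from the other inhibitors in the series. Against the mean of the DAPT, U0126 and TAE226 groups, a contrast that holds no vehicle array, 5880 genes were called (51.5%), 2821 with PP2 higher (24.7%) and 3059 with PP2 lower (26.8%). Of the 16 matrix genes, 14 were lower under PP2 in that contrast and none was higher, with a median of -1.41. Postn differed by -5.36 (adjusted p = 3.5e-18), Adam12 by -3.76 (adjusted p = 1.1e-15) and Loxl3 by -3.44 (adjusted p = 4.5e-15). Fn1, at -1.21 against vehicle, differed from the other inhibitors by -2.63 (adjusted p = 5.7e-12), and part of this gap lay with the other inhibitors. Fn1 had 11.56 to 11.86 on U0126 arrays and 10.70 to 11.10 on TAE226 arrays, against 9.14 to 9.22 on vehicle arrays. On DAPT arrays it had 9.04 to 9.48. Adam12 and Tnc were also above vehicle on all U0126 and TAE226 arrays, and below it on all DAPT arrays. Relative to the same vehicle arrays that PP2 is set against, Postn differed by -0.02 under DAPT, 0.07 under U0126 and 0.15 under TAE226. The median of the matrix list was 0.01 under DAPT, 0.63 under U0126 and 0.25 under TAE226.

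**Figure D3:**
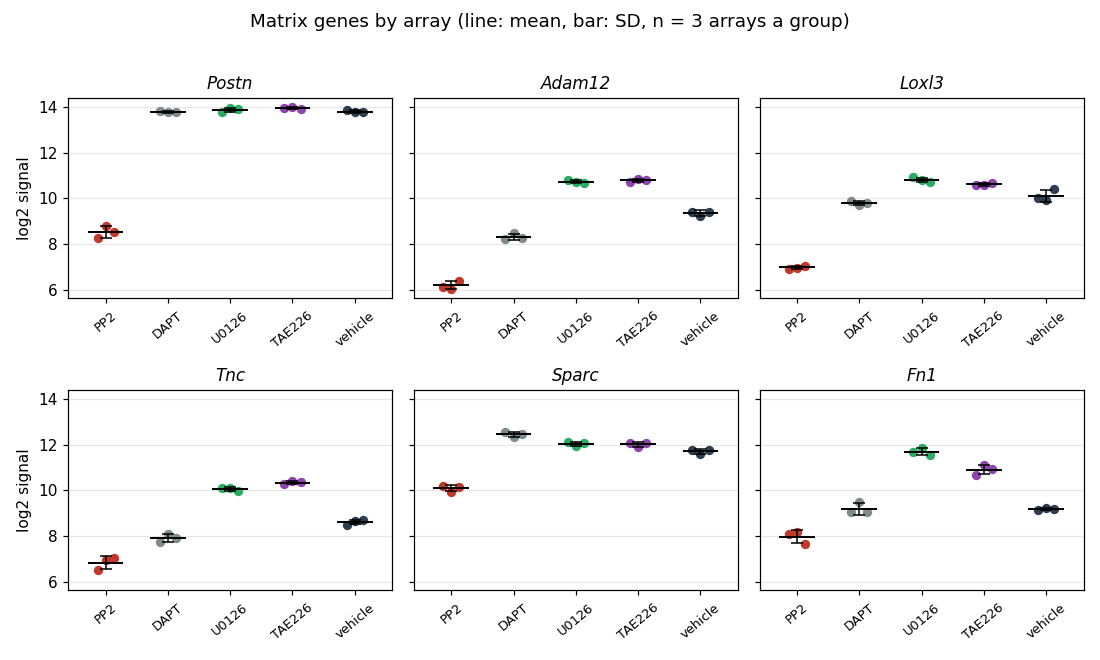
Log2 signal (vertical axis) of 6 matrix genes on each array of the PP2, DAPT, U0126, TAE226 and vehicle groups, with group mean and SD, n = 3 arrays each. Periostin averages 8.52 on PP2 arrays and 13.81 on vehicle arrays, and in each panel the PP2 points are the lowest of the 5 groups.

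Genes of the plasmin system, of metalloproteases and of their inhibitors fell more often than they rose, with 2 rises and 6 falls among 11 tested. Under median centring 2 rose and 7 fell. The urokinase receptor Plaur fell by 0.98 (adjusted p = 2.3e-06) and the protease inhibitor Timp3 by 0.97 (adjusted p = 1.62e-08). Timp2 rose by 1.45 (adjusted p = 4.89e-11) and Mmp14 by 0.66 (adjusted p = 1.42e-07). Of the genes driven by the YAP and SRF factors, which respond to tension and adhesion, 7 of 16 rose and 5 fell, with a median of 0.20 that became -0.02 under median centring, where 3 rose and 5 fell. The matricellular genes Ccn2 and Ccn1 fell by 0.90 and 0.80 (adjusted p = 2.45e-09 and 3.36e-07), whereas Ankrd1 rose by 1.03 (adjusted p = 2.38e-05). Against the mean of the other 3 inhibitors, 13 of the 16 were lower under PP2 and 1 was higher, with a median of -0.59. Those inhibitors themselves lay above vehicle for this list, with medians of 0.34 under DAPT, 0.70 under U0126 and 0.79 under TAE226.

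Milk genes gave the largest rises. Of 15 tested, 11 rose and 1 fell, with a median of 1.34, and 10 of the rises were at least 2-fold. Caseins are the main milk proteins, made by alveolar luminal cells under prolactin through the factor STAT5. Windows upstream of the 2 casein genes whose promoter held a STAT-type site (TTCNNNGAA, searched on both strands in the 250 bases before the start) are shown because the caseins carry this result. They come from RefSeq on build GRCm38.p6, on the strand of the gene, with the site in capitals.
Csn2, chr5:87699474-87699553, minus strand: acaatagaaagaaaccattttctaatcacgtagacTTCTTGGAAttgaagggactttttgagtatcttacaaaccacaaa
Csn1s1, chr5:87666073-87666152, plus strand: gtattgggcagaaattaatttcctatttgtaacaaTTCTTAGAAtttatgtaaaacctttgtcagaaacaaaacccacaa
The sites start 93 bases before the gene start for Csn2 and 100 bases before it for Csn1s1. Of 11 milk genes with a promoter in the table, 2 held such a site (18.2%), against 651 of 9251 genes tested (7.04%). A match is a run of letters and not a bound site.

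Beta-casein (Csn2) had 13.31, 13.13 and 13.39 in PP2 spheres, against 6.54, 6.51 and 6.37 in vehicle spheres. Every PP2 array was far above every vehicle array, and the rise was 6.80 ± 0.18 (adjusted p = 5.66e-14), about 112-fold. Csn1s2a had 12.15, 11.84 and 12.00 in PP2 spheres, against 5.03, 5.44 and 5.20 in vehicle spheres. It was dim on all vehicle arrays, so it was at least 55.9-fold higher (adjusted p = 1.92e-07). Alpha-casein (Csn1s1) was already bright in vehicle spheres, with 14.76, 14.85 and 14.78 under PP2 against 12.39, 12.40 and 12.49 under vehicle, and rose by 2.37 ± 0.09 (adjusted p = 2.71e-12). Kappa-casein (Csn3) had 14.61, 14.84 and 14.68 in PP2 spheres, against 14.58, 14.47 and 14.71 in vehicle spheres, and its difference of 0.12 was not called. Csn3 and, under PP2, Csn1s1 lay near the top of the signals and Csn2 in vehicle spheres near the array median, so the sizes of these differences are not compared between probes.

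Other products of the lactating cell rose as well. Butyrophilin (Btn1a1), a protein of the milk fat globule membrane, had 10.85, 11.05 and 10.89 in PP2 spheres, against 8.23, 8.36 and 8.24 in vehicle spheres, and rose by 2.65 ± 0.09 (adjusted p = 3.62e-13). The folate receptor Folr1 had 10.61, 10.59 and 10.46 in PP2 spheres, against 8.16, 7.93 and 8.22 in vehicle spheres, and rose by 2.45 ± 0.13 (adjusted p = 8.51e-11). Lactoferrin (Ltf), an iron-binding milk protein, rose by 1.99 ± 0.08 (adjusted p = 4.53e-12). Whey acidic protein (Wap), xanthine dehydrogenase (Xdh) and Mfge8, named here after their values were seen, rose by 1.19, 1.11 and 1.01 (adjusted p = 0.0127, 5.18e-09 and 9.56e-10). Perilipin 2 (Plin2), which coats lipid droplets, fell by 0.28 (adjusted p = 0.00222), and alpha-lactalbumin (Lalba) differed by 1.48 without being called (adjusted p = 0.0809).

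Against the mean of the other 3 inhibitors all 15 milk genes tested were higher under PP2, with a median of 1.40. Csn2 differed by 6.92 (adjusted p = 1.6e-15), Csn1s1 by 4.81 (adjusted p = 3e-17) and Csn3 by 0.77 (adjusted p = 1.7e-07). The 4 inhibitors share the vehicle arrays, and relative to these the median of the milk list was 1.34 under PP2, 0.84 under DAPT, -1.39 under U0126 and -0.14 under TAE226. Csn2 differed from vehicle by 6.80 under PP2, 1.18 under DAPT, -1.86 under U0126 and 0.32 under TAE226. It was dim on all U0126 arrays, at 4.30 to 4.96. The sizes of the -1.86 here and of the 6.92 above therefore rest partly on signal below the array median. Lactoferrin (Ltf) differed by 1.99, 1.44, -1.94 and 0.06 in the same order, so DAPT spheres also lay above vehicle for these genes. Csn1s1 was the exception among the milk genes plotted, at -0.89 under DAPT, -5.25 under U0126 and -1.19 under TAE226, next to 2.37 under PP2. Lrg1, a secreted glycoprotein, and Clca3a2 were also among the genes furthest above the other inhibitors, each by 4.72 (adjusted p = 1.4e-09 for Lrg1 and 5e-08 for Clca3a2). Against vehicle they rose by 3.16 and 1.93 (adjusted p = 2.36e-06 and 0.00377).

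**Figure D4:**
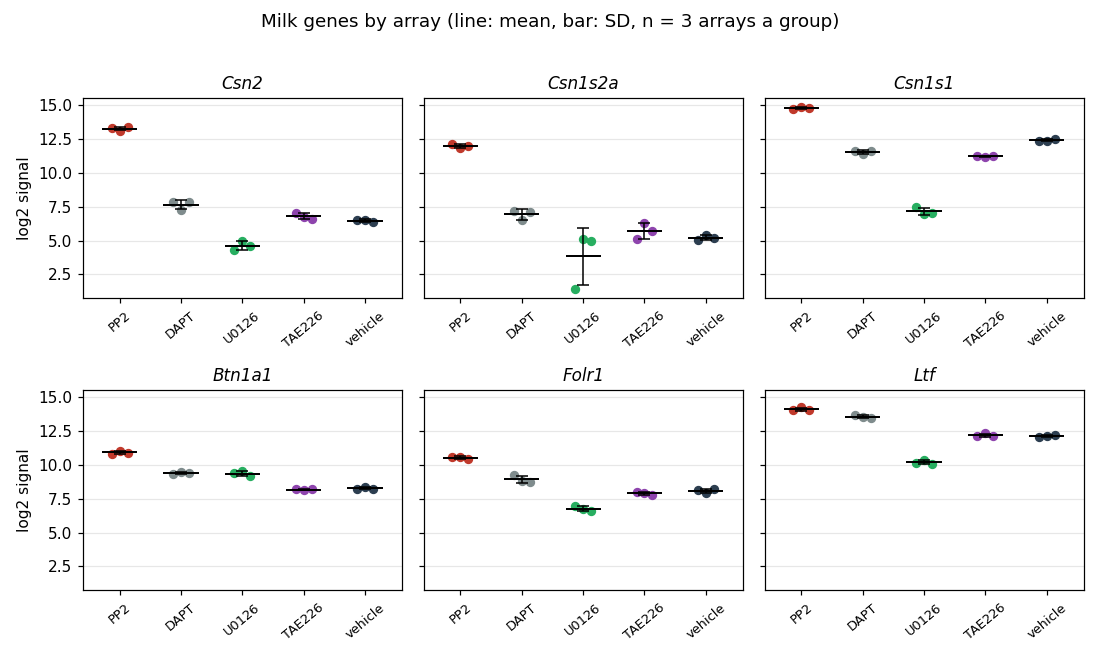
Log2 signal (vertical axis) of 6 milk genes on each array of the PP2, DAPT, U0126, TAE226 and vehicle groups, with group mean and SD, n = 3 arrays each. The PP2 points are the highest in each panel, and beta-casein stands at 13.13 to 13.39 on PP2 arrays and at 6.37 to 6.54 on vehicle arrays.

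Genes of the prolactin and STAT5 pathway rose modestly: 8 of 12 tested were higher and 1 was lower, with a median of 0.44. Median centring left 3 of them called higher and 1 called lower, with a median of 0.22. Gata3, a factor that directs luminal differentiation, had 12.26, 12.23 and 12.27 in PP2 spheres, against 10.98, 10.97 and 11.07 in vehicle spheres. It rose by 1.24 ± 0.05 (adjusted p = 2.99e-12), and the arrays of the groups did not overlap. Stat5a rose by 0.82 (adjusted p = 3.6e-07) and the STAT5 target Cish by 0.77 (adjusted p = 1.64e-06). The alveolar factor Elf5 rose by 0.48 (adjusted p = 0.000287), which was not called under median centring. Socs2, another feedback gene of this pathway, fell by 1.20 ± 0.07 (adjusted p = 3.24e-10).

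Cell-identity genes shifted in part. The receptor Kit, carried by luminal progenitors, had 13.22, 13.35 and 13.25 in PP2 spheres, against 11.48, 11.54 and 11.54 in vehicle spheres, and rose by 1.75 ± 0.05 (adjusted p = 1.04e-13). Prom1, also a luminal surface marker, had 7.82, 7.85 and 7.77 in PP2 spheres, against 9.34, 9.41 and 9.44 in vehicle spheres, and fell by 1.59 ± 0.08 (adjusted p = 5.51e-11). Of 11 basal and myoepithelial genes tested, 5 fell and 3 rose, with a median of -0.48. With the mean over all probe sets of each gene 2 fell and 2 rose, with a median of -0.06, and under median centring 5 fell and none rose. The basal keratins Krt5, Krt17 and Krt14 fell by 1.20, 1.03 and 0.58 (adjusted p = 3.63e-09, 1.11e-05 and 1.97e-06), and the basal factor Trp63 fell by 0.48 (adjusted p = 1.33e-05). Over all of their probe sets Krt17 differed by -0.69 and Trp63 by -0.06, neither called. These named genes are all falls, and the list also held 3 called rises. Its largest upward difference, 0.71 for Acta2, was not called (adjusted p = 0.0521). The stress keratin Krt6a fell by 1.50 (adjusted p = 3.56e-12), and the cornified-envelope gene Sprr1a rose by 1.84 (adjusted p = 5.27e-08) while its relative Sprr1b, dim on all PP2 arrays, was at least 2.35-fold lower (adjusted p = 2.75e-05). Of 5 genes tied to epithelial-mesenchymal transition, 3 fell: Fn1, N-cadherin (Cdh2, by 1.06, adjusted p = 5.25e-07) and Snai2 (by 0.87, adjusted p = 8.78e-05). Vimentin (Vim) rose by 0.30 (adjusted p = 0.000567), which was not called under median centring or over all of its probe sets.

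The 15 largest rises included several genes outside these lists. Glutamine synthetase (Glul) had 10.10, 9.98 and 10.11 in PP2 spheres, against 6.36, 6.51 and 6.19 in vehicle spheres, and rose by 3.71 ± 0.09 (adjusted p = 3.01e-14). The kallikrein gene Klk1b1 rose by 4.11 ± 0.11 (adjusted p = 6.11e-14) and its relative Egfbp2 by 4.45 ± 0.27 (adjusted p = 5.48e-10), and transcripts of such near-identical family members can cross-hybridise between probe sets. The chemokine Ccl6 rose by 3.77, the matrix gene Prelp by 3.28 and chondromodulin (Cnmd) by 3.46. Ang3, Hepacam2, the natriuretic peptide receptor Npr3 and the sugar transporter Slc2a6 were dim on all vehicle arrays and were at least 9.36-fold, 8.95-fold, 7.66-fold and 4.99-fold higher (adjusted p = 9.12e-10, 1.41e-05, 8.45e-12 and 0.000157).

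Interferon-stimulated genes fell furthest as a group. All 26 tested were lower under PP2, with no overlap between groups in any, and 25 fell at least 2-fold. The median was -3.05, or -2.73 with dim genes held at their bound. These genes encode antiviral proteins and are switched on through the ISGF3 complex at a repeated element in their promoters. Windows that hold the element (GAAANNGAAA, both strands, 250 bases before the start) are shown for 4 of these genes, with matches in capitals. They come from RefSeq on build GRCm38.p6, on the strand of the gene.
Ifit1, chr19:34640769-34640848, plus strand: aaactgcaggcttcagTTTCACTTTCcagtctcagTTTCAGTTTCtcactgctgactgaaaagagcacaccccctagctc
Rsad2, chr12:26456528-26456607, minus strand: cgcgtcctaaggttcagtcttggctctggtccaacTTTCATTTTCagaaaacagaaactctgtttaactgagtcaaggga
Cxcl10, chr5:92349058-92349137, minus strand: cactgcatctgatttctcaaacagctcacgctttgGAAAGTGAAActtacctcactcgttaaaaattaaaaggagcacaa
Gbp3, chr3:142559964-142560043, plus strand: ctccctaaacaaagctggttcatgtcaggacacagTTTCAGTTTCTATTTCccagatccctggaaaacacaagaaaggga
Of 19 interferon-list genes with a promoter in the table, 10 held the element (52.6%), against 282 of 9251 genes tested (3.05%).

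Rsad2 (viperin) had 6.99, 7.24 and 6.44 in PP2 spheres, against 12.59, 12.83 and 12.41 in vehicle spheres. It fell by 5.72 ± 0.21 (adjusted p = 8.84e-13). Usp18, which removes the ubiquitin-like modifier ISG15, had 7.33, 6.36 and 6.98 in PP2 spheres, against 12.40, 12.59 and 12.32 in vehicle spheres, and fell by 5.54 ± 0.20 (adjusted p = 7.37e-13). The guanylate-binding protein gene Gbp3 fell by 4.93 (adjusted p = 3.06e-11). Ifit1, which binds viral RNA, had 5.20, 4.45 and 5.26 in PP2 spheres, against 11.73, 11.98 and 11.52 in vehicle spheres. It was dim on all PP2 arrays and at least 40.4-fold lower (adjusted p = 5.92e-12). Oasl2, Mx2 and the chemokine Cxcl10 were also dim on all PP2 arrays and at least 15.8-fold, 5.25-fold and 4.38-fold lower (adjusted p = 6.72e-11, 1.01e-05 and 4.43e-05).

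The antigen-presentation genes that interferon also controls fell with them, 12 of 13 tested and none higher, with a median of -0.98. The immunoproteasome subunit Psmb8 had 6.54, 6.40 and 6.96 in PP2 spheres, against 10.59, 10.78 and 10.32 in vehicle spheres, and fell by 3.93 ± 0.18 (adjusted p = 1.76e-11). Psmb9 fell by 2.69 (adjusted p = 5.85e-09) and the peptide transporter Tap1 by 2.05 (adjusted p = 2.54e-10). Relative to the same vehicle arrays, the median of the antigen-presentation list was -1.27 under DAPT, -1.30 under U0126 and -0.58 under TAE226. Against the mean of the other 3 inhibitors, 4 of its genes were higher under PP2 and 3 were lower, with a median of 0.0043. Interferon-list genes were low in the other inhibitor groups too. The list's median difference from the same vehicle arrays was -3.14 under DAPT, -3.27 under U0126 and -1.44 under TAE226. Since these comparisons share the vehicle arrays, the direct contrasts were used: 13 of the 26 genes were lower under PP2 than under the mean of the other 3 inhibitors, with a median of -0.44, and 24 were lower than under TAE226, with a median of -1.51.

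**Figure D5:**
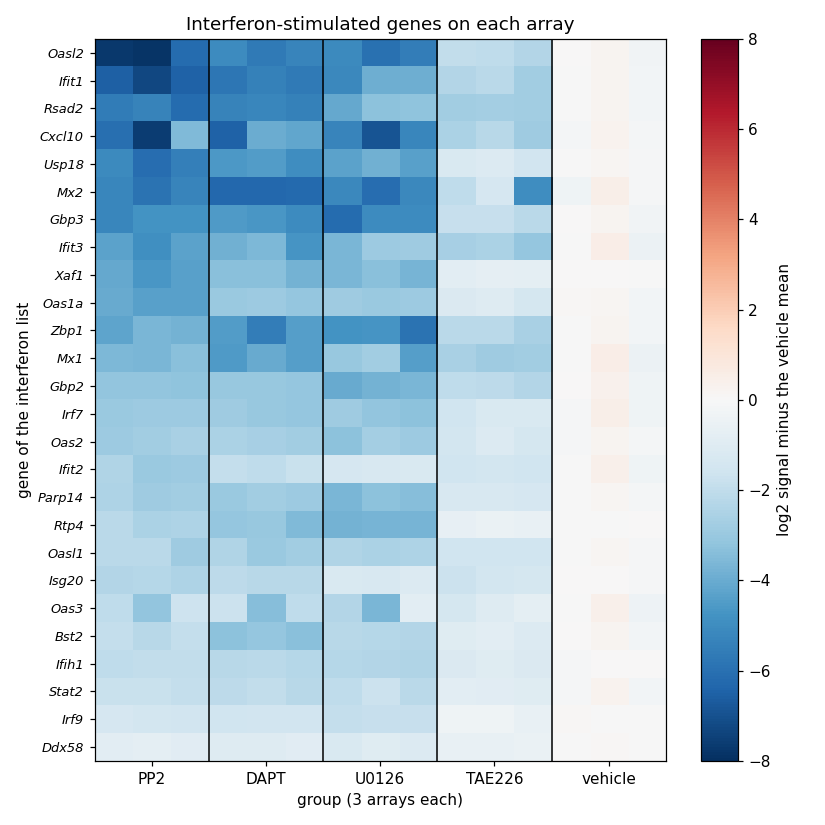
Colour gives log2 signal minus the mean of the vehicle arrays for 26 interferon-stimulated genes (down the page, ordered by their change under PP2) on each of the 15 arrays, 3 per group. The PP2 arrays are blue for all 26 genes, and the TAE226 arrays are paler than the PP2 arrays for most of them, with list medians of -1.44 and -3.05.

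Hypoxia-responsive and glycolytic genes fell in part: 19 of 25 tested were lower and 3 higher, with a median of -0.68. The prolyl hydroxylase Egln3 had 7.52, 8.04 and 7.51 in PP2 spheres, against 11.40, 11.30 and 11.37 in vehicle spheres. It fell by 3.67 ± 0.12 (adjusted p = 3.68e-13). Carbonic anhydrase 9 (Car9) had 7.59, 7.57 and 7.12 in PP2 spheres, against 10.59, 10.55 and 10.52 in vehicle spheres, and fell by 3.12 ± 0.12 (adjusted p = 2.06e-12). Adrenomedullin (Adm) and Angptl4 were dim on all PP2 arrays and at least 5.09-fold and 9.91-fold lower (adjusted p = 4.04e-11 and 3.54e-12). Vegfa, the angiogenic factor, fell by 1.92 ± 0.14 (adjusted p = 4.93e-09). The glycolytic genes Ldha and Aldoc and the stress gene Ndrg1 rose by 0.17, 0.72 and 0.54, and Ldha differed by -0.05 under median centring. The call of Ldha was also lost without PP2 replicate 2 (0.15), vehicle replicate 1 (0.17) or vehicle replicate 2 (0.14).

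Hypoxia genes were also compared between PP2 and the FAK inhibitor. In the direct contrast of PP2 with TAE226, 4975 genes were called (43.6%), and for this list 5 genes were higher and 8 lower under PP2, with a median of -0.0034. Egln3 differed by -0.28 and Vegfa by -0.32 between the inhibitors, while Car9 differed by -1.10. Adm differed by -3.40, but it was dim on all PP2 arrays, so the size of that difference is not read.

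Genes of the integrated stress and unfolded protein responses fell in 17 of 25 cases and rose in 1, with a median of -0.60. Relative to the same vehicle arrays, the list median was -0.45 under DAPT, -0.66 under U0126 and -0.645 under TAE226. Against the mean of these 3 inhibitors, 9 genes were higher under PP2 and 10 were lower, with a median of 0.0056. Trib3, a pseudokinase induced by the factor ATF4, had 7.80, 7.80 and 7.86 in PP2 spheres, against 10.51, 10.60 and 10.43 in vehicle spheres, and fell by 2.69 ± 0.08 (adjusted p = 6.16e-14). Chac1, which breaks down glutathione, fell by 2.22 (adjusted p = 5.5e-12), Ddit3 (CHOP) by 1.62 (adjusted p = 2.44e-09) and the serine synthesis enzyme Phgdh by 1.94 (adjusted p = 2e-12). The chaperones Hspa5 and Hsp90b1 differed by -0.15 and -0.23 and were not called. Of 19 genes of cholesterol synthesis, 16 fell and none rose, with a median of -0.65, led by the demethylase Cyp51, which fell by 1.36 (adjusted p = 8.96e-12), and by Msmo1, by 1.24 (adjusted p = 1.78e-11).

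Targets of the oxidant-response factor NRF2 rose in 15 of 20 cases and fell in 3, with a median of 0.37. Under median centring 7 rose and 4 fell, with a median of 0.15. The glutathione transferase Gsta3 had 9.59, 9.55 and 9.64 in PP2 spheres, against 6.48, 6.65 and 6.74 in vehicle spheres, and rose by 2.97 ± 0.10 (adjusted p = 5.85e-13). Glutathione reductase (Gsr) rose by 1.25 (adjusted p = 7.72e-07). Nqo1, often used as a marker of this pathway, fell by 1.01 (adjusted p = 4.59e-08), so the list did not move as 1 block. Nqo1 is also a target of the aryl hydrocarbon receptor. In the list of that pathway 3 of 7 genes rose and 2 fell, with a median of -0.08, and under median centring 2 rose and 4 fell. Aldh3a1 and Cyp1b1 rose by 2.03 and 1.43 (adjusted p = 1.52e-12 and 1.96e-11). Over all of its probe sets Cyp1b1 differed by 0.47 and was not called.

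Cell-death genes of the BCL2 family rose in 7 of 14 cases and fell in 3, with a median of 0.22 that became 0.0022 under median centring, where 3 rose and 4 fell. Bmf, a BH3-only protein released from the cytoskeleton when cells detach, had 9.86, 9.81 and 9.93 in PP2 spheres, against 7.73, 7.67 and 7.17 in vehicle spheres. It rose by 2.34 ± 0.15 (adjusted p = 1.11e-09), and by 2.32 against the mean of the other 3 inhibitors (adjusted p = 9e-11). Bim (Bcl2l11), which ERK signalling represses, had 11.07, 11.07 and 11.09 in PP2 spheres, against 10.31, 10.33 and 10.26 in vehicle spheres, and rose by 0.77 ± 0.06 (adjusted p = 1.1e-08). Bik rose by 1.14 (adjusted p = 0.000145), and the p53-regulated Pmaip1 (Noxa) fell by 0.90 (adjusted p = 1.28e-06).

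Of 9 calcium-binding S100 genes tested, 5 fell and 2 rose, with a median of -0.22. S100a14 had 7.06, 7.58 and 7.13 in PP2 spheres, against 10.34, 10.62 and 10.31 in vehicle spheres, and fell by 3.16 ± 0.13 (adjusted p = 3.82e-12). S100a4, tied to cell motility, fell by 2.36 (adjusted p = 1.15e-08) and S100a6 by 1.07 (adjusted p = 7.48e-10), whereas S100a13 rose by 0.74 (adjusted p = 1.78e-05). Of 11 epithelial defence genes tested, 6 rose and none fell, with a median of 0.22 that became -0.0044 under median centring, where 5 were called higher. The antiprotease Slpi rose by 0.97 (adjusted p = 2e-07) and the acute-phase gene Saa1 by 1.31 (adjusted p = 0.000133). The dentin matrix gene Dmp1, 1 of the largest falls, was dim on all PP2 arrays and at least 14.5-fold lower (adjusted p = 4.31e-12).

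FAK and Src form 1 complex at cell adhesions, so PP2 was compared directly with the FAK inhibitor TAE226. The contrast shows where these compounds gave different RNA profiles, and block of either kinase was not tested here. PP2 was higher for 2325 genes and lower for 2650. Periostin differed by -5.44 (adjusted p = 7.6e-17). N-cadherin (Cdh2) averaged 8.44 ± 0.13 in PP2 spheres and 11.70 ± 0.10 in TAE226 spheres (SD, n = 3 each), a difference of -3.26 (adjusted p = 9.24e-13). Fibronectin differed by -2.93 (adjusted p = 3.1e-11). Caveolin-1 averaged 9.72 ± 0.06 in PP2 spheres and 12.18 ± 0.10 in TAE226 spheres, a difference of -2.47 (adjusted p = 2.18e-13). For Cdh2 and fibronectin these gaps were much larger than the falls against vehicle, so TAE226 spheres averaged above vehicle for both. For caveolin-1 the gap was close to the fall against vehicle. For the YAP and SRF targets, 12 of 16 were lower under PP2 than under TAE226 and none was higher, with a median of -0.65. Against vehicle the median of these targets was 0.79 under TAE226 and 0.20 under PP2.

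Growth and milk genes also separated the 2 inhibitors. For the ERK-responsive list, 17 of 21 genes were lower under PP2 and 1 was higher, with a median of -1.03, and for G2/M genes 26 of 27 were lower, with a median of -0.94. Hbegf averaged 7.10 ± 0.32 in PP2 spheres and 9.93 ± 0.10 in TAE226 spheres, a difference of -2.82 (adjusted p = 8.51e-12). Of 15 milk genes, 11 were higher under PP2 and none was lower, with a median of 1.61. Csn1s1 averaged 14.80 ± 0.05 in PP2 spheres and 11.24 ± 0.02 in TAE226 spheres, a difference of 3.56 (adjusted p = 7.45e-14). For the stress-response list 10 of 25 genes were higher and 10 were lower under PP2, with a median of -0.16.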

How the data were processed

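The deposited files hold linear intensity values for every probe set of the Affymetrix Mouse430_2 array. Per the labels' protocols, labelling started from 250 ng of total RNA and primed at the 3′ end. Per the submitters' processing notes, the authors used MAS5 and Affymetrix Expression Console to make these intensity values, with no version or setting stated there. On each array the mean after trimming 2% at each end was 500, which is how the deposited intensities were scaled. That scaling fixes a mean and not a distribution, so a broad shift can be hidden or spread over other genes. Array medians were 78.7 to 90.8 for PP2 and 65.7 to 78.4 for vehicle, and the number of arrays limits the precision.

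Of 45101 probe sets, 34945 named exactly 1 gene, 932 several and 9160 none, besides 64 controls. Entrez IDs matched 34741 of them to the RefSeq gene table, and 204 kept the annotation's symbol. Each of 18193 genes was represented by its brightest probe set over the 15 arrays. Probe sets with a name ending in _x_at were used only where the gene had no other. The 11412 genes that exceeded the array median on 3 or more arrays were tested. The model for the log2 values of all 15 arrays (limma 3.58.1, R 4.3.3) had 1 coefficient per group, with an intensity trend, 10 residual and 6.40 prior degrees of freedom, two-sided p-values and Benjamini-Hochberg adjustment over all genes tested. All adjusted p-values of single genes come from this fit, and errors beside differences are its standard errors (median 0.0976). The code of the fit was also run on simulated arrays with known changes in a small part of the genes. Those arrays held no broad change, so that run does not bear on the calls made here. The comparisons were PP2 against vehicle, against TAE226 and against the mean of the other 3 inhibitors. A gene below the array median on all arrays of a group was called dim, and its fold is a lower bound with each dim array held at the higher of its median and its own value.

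The members, the 52 gene lists and the tests were chosen with earlier results of these data known. Named genes were the 15 largest rises and falls among bright, non-overlapping genes, up to 6 called members of each list, all tested Src family and regulator genes, and the 6 largest differences each way from the other inhibitors, and from each of these groups the text gives those that the account needs. Aldoc, Egfr, Epha4, Erbb2, Erbb3, Etv4, Jund, Ldha, Mfge8, Ndrg1, Nr4a1, Plin2, Thbs1, Wap and Xdh lie outside that rule and were named after their values were seen. Promoter windows and motif counts used RefSeq sequences of 250 bases before gene starts on GRCm38.p6. The 15 alternative settings were other normalizations, a pseudocount, other filters on dim genes, other fits, other probe set rules and leaving out single arrays.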

Additional observations from a re-analysis of the deposited data

How the results depend on the processing

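The counts of genes called against vehicle, TAE226 and the mean of the other inhibitors stayed within 1.5 times under every alternative tried. The count called higher against vehicle was 1210 under median centring, in place of 2978, because that setting moves all differences by -0.22. The count of called genes changed at least 2-fold was 620 with a pseudocount of 80.7, in place of 1040, since a pseudocount shrinks the differences of dim genes. Leaving out single PP2 or vehicle arrays gave 5356 to 5876 genes called. The replicate numbers in the labels did not pair the samples. After the group mean of each gene was taken off, same-numbered PP2 and vehicle arrays had correlations of 0.03, -0.23 and -0.24. Differently numbered ones had -0.04 to 0.26. A fit with the number as a replicate block called 5930 genes. Of 160 named genes called against vehicle, 137 kept their direction and their call under all 15 settings in which they were tested. Median centring ended 11 calls and turned Erbb3 (-0.0059) and Ldha (-0.054). The mean over a gene's probe sets ended 8 calls and turned Cbl (-0.48), Ptpra (0.36) and Rbl1 (0.0755). Other settings turned none. Genes not called in the text gained a call under some settings: Foxm1, Hsp90b1, Hspa5 and Pxn under median centring, Cblc, Csn3, Foxm1, Hspa5 and Yes1 with the mean over probe sets, Csn3, Hspa5 and Krt8 after quantile normalization, Lalba with the pseudocount, Krt8 and Lalba with only the arrays compared, and Foxm1, Hspa5 or Hsp90b1 without single arrays. The causes of these turns were not tested. Signal over background limits the dim genes, whose folds are bounds.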

Other observations

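Of 18 desmosome and tight junction genes tested, 5 rose and 4 fell under PP2 against vehicle, shares close to those of all genes (26.1% higher and 26.7% lower). The median was 0.03 and became -0.19 under median centring, where 3 rose and 8 fell. The tight junction gene Cldn8 had 10.25, 9.95 and 9.92 in PP2 spheres, against 7.93, 7.85 and 8.05 in vehicle spheres, and rose by 2.10 (limma adjusted p = 7.71e-11). Tjp3, a tight junction scaffold, rose by 1.89 (adjusted p = 4.66e-08). The desmosome genes Pkp1, Dsc2 and Dsp fell by 1.38, 1.12 and 1.02 (adjusted p = 1.35e-10, 6.41e-07 and 1.98e-11). Of 19 TGF-beta and BMP genes, 9 rose and 4 fell, with a median of -0.02, and under median centring 6 rose and 6 fell. Smad6, an inhibitor of BMP signals, had 8.67, 8.43 and 8.51 in PP2 spheres, against 5.91, 6.20 and 6.34 in vehicle spheres, and rose by 2.38 (adjusted p = 5.17e-09). The ligand Tgfb3, known for its part in mammary involution, rose by 1.76 (adjusted p = 3.62e-13) and its binding protein Ltbp1 by 1.69 (adjusted p = 1.63e-10).

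Chemokines went both ways. Cxcl1 had 11.32, 11.31 and 11.15 in PP2 spheres, against 13.32, 13.27 and 13.28 in vehicle spheres, and fell by 2.03 (adjusted p = 7.69e-13). Cxcl2 was dim on all PP2 arrays and at least 7.44-fold lower (adjusted p = 9.86e-09), next to the rise of Ccl6. Over 21 NF-kB and inflammatory genes, 6 rose and 5 fell, with a median of -0.02, and under median centring 3 rose and 7 fell. Insulin-like growth factor binding proteins also diverged: Igfbp4 rose by 1.71 (adjusted p = 1.16e-11), whereas Igfbp7 and Igfbp3 fell by 1.78 and 1.21 (adjusted p = 4.07e-10 and 1.65e-06). In the Notch list 7 of 16 genes rose and 5 fell, and under median centring 4 rose and 6 fell. Its ligand Jag1 had 9.26, 9.23 and 9.36 in PP2 spheres, against 11.59, 11.69 and 11.45 in vehicle spheres, and fell by 2.29 (adjusted p = 6.16e-14). Dtx4 rose by 1.46 (adjusted p = 1.31e-07). Of 24 lysosome and autophagy genes 13 rose and 4 fell, with a median of 0.23 that became 0.0073 under median centring, where 5 rose and 5 fell.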
